A study of Homo sapiens with 6 samples.

Results

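FOS, JUN and EGR immediate early factors are transcription factors, and cells switch on many of their genes within minutes of a stimulus, without new protein. The genes were chosen by name. Of 10 named genes, FOS, FOSB, FOSL1, FOSL2, JUN, JUNB, JUND, EGR1 and IER2 had a probe set with a gene symbol, which made 9 genes of 14812 measured, and EGR2 was not analysed here. RNA of HuH7, a line of human hepatoma cells, was read on 6 arrays, 3 for the control gapmer group and 3 for the EGOT gapmer group. A gapmer is an oligonucleotide that directs RNase H to cut a complementary RNA, and EGOT is a long noncoding RNA induced by viral infection. Every culture, controls included, received 50 pmol of its gapmer, 0.3 µg of a plasmid expressing the kinase PKR with carrier plasmid, and the synthetic double-stranded RNA poly I:C, and was harvested 36 h after transfection. The comparison asks what differs when EGOT is lowered in cells already stimulated in this way, with 1 gapmer against EGOT, 1 cell line and no unstimulated cells.

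FOS and JUN proteins carry a basic region and a leucine zipper, and pair to form the dimeric factor AP-1. JUN proteins can pair with one another, whereas FOS proteins need a JUN partner. EGR1 is a zinc finger factor that binds GC-rich sites, and IER2 is a small nuclear protein induced with them. Serum response factor and its partners, acting on CArG boxes, and CREB family factors, acting on cAMP response elements, are the classical switches of these genes, and their short-lived RNAs usually fall again within hours.

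None of the 9 genes passed the test. By limma, fitted over all 14812 genes with Benjamini-Hochberg adjustment and a threshold of 0.05, 0 rose and 0 fell with the EGOT gapmer, and 2, JUND and EGR1, had an unadjusted p under 0.05. Over all genes 8.41% passed, 5.2% higher and 3.21% lower, and 25% had an unadjusted p under 0.05. The median log2 difference of the 9 genes, EGOT gapmer minus control gapmer, was 0.088, beside 0.037 over all genes. It lay above 0 in 5 genes and below 0 in 4, and ran from -0.41 for EGR1 to 0.34 for JUND. Values are log2 probe set levels, and ± gives the SD of 3 arrays.

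Promoters of JUND and EGR1, the genes with the highest and the lowest difference, are shown as the 250 bases before the RefSeq start (GRCh38.p14), 5′ to 3′ along the gene's strand. Capitals mark matches to a full cAMP response element in JUND, and in EGR1 to an EGR site and then to 2 CArG boxes. JUND is at chr19:18281623-18281872 on the minus strand and EGR1 at chr5:138465229-138465478 on the plus strand.
JUND: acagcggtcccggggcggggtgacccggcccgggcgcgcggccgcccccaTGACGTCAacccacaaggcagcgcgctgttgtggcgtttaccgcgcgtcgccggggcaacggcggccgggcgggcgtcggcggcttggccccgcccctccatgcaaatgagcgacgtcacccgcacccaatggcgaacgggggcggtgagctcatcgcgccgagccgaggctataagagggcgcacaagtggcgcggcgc
EGR1: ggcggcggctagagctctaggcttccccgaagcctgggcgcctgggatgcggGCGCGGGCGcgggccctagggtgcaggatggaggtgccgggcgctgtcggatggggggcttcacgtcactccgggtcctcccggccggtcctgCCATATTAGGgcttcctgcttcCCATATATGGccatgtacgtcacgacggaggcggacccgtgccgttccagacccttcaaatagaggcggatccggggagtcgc

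RefSeq windows were matched for 8 of the 9 genes and searched on both strands. The full cAMP response element, TGACGTCA, was found in JUND alone of the 8, and in 1.77% of 27305 gene windows of the same length. Its shorter core TGACG, which the full element contains, was found in 8 of 8, beside 21.7% of all windows. The share of G and C in the 8 windows ran from 62% (JUN) to 74.8% (JUND). All windows were not matched to them in base content, so these shares do not show an enrichment. A CArG box was found in EGR1 alone of the 8, beside 1.14% of all windows, and the EGR site GCGNGGGCG in EGR1 alone, beside 8.25%. The AP-1 site TGANTCA was in 0 of the 8 windows, beside 6.6% of all. The JUN window holds TGACATCA, which is close to TGACGTCA but matches none of these patterns. Only exact matches were counted, so variant forms of a site inside the windows were left out. These matches describe letters in the 250 bases before each start. Sequence outside them was not searched, so a gene without a match may have one elsewhere, and binding was not measured.

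The FOS family gene with the classic name, FOS, had log2 levels of 6.09, 6.30 and 6.07 on control gapmer arrays 1 to 3 and of 6.28, 6.34 and 6.13 on EGOT gapmer arrays 1 to 3. The groups overlapped, control array 2 lying above EGOT gapmer arrays 1 and 3. Means were 6.15 ± 0.126 and 6.25 ± 0.108 (SD, n = 3 each), a log2 difference of 0.095 with a standard error of 0.0948 (limma adjusted p = 0.599). With 1 array left out the difference ran from 0.051, without EGOT gapmer replicate 2, to 0.17, without control gapmer replicate 2. These levels were close to the median of all named genes, which was 6.14 to 6.22 on the 6 arrays.

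FOSB, which also gives rise to the stable truncated form known from neurons, read 6.42, 6.47 and 6.48 on the control arrays and 6.55, 6.75 and 6.49 on the EGOT gapmer arrays. The EGOT gapmer arrays were all above the control arrays, but EGOT gapmer array 3 by only 0.0105 on the log2 scale. This gave a log2 difference of 0.14 (standard error 0.0861, limma adjusted p = 0.368). It was 0.066 without EGOT gapmer replicate 2.

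FOSL1, or FRA1, a FOS protein without the transactivation domain of FOS, was the least even of the 9 genes. It read 5.65, 5.93 and 5.91 on the control arrays, and 5.62, 5.16 and 5.99 on the EGOT gapmer arrays. EGOT gapmer array 3 was the highest of the 6 and array 2 the lowest. The log2 difference of -0.24 had a standard error of 0.201 (limma adjusted p = 0.516), and it was -0.030 without EGOT gapmer replicate 2 and -0.44 without EGOT gapmer replicate 3. FOSL1 was also below the median of the named genes on every array.

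FOSL2, or FRA2, is the longest of the 9 genes, at 24460 bp in RefSeq. Its levels were 6.54, 6.46 and 6.42 on the control arrays and 6.54, 6.52 and 6.61 on the EGOT gapmer arrays, so the groups overlapped. The log2 difference came to 0.088 (standard error 0.0706, limma adjusted p = 0.504).

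**Figure D1:**
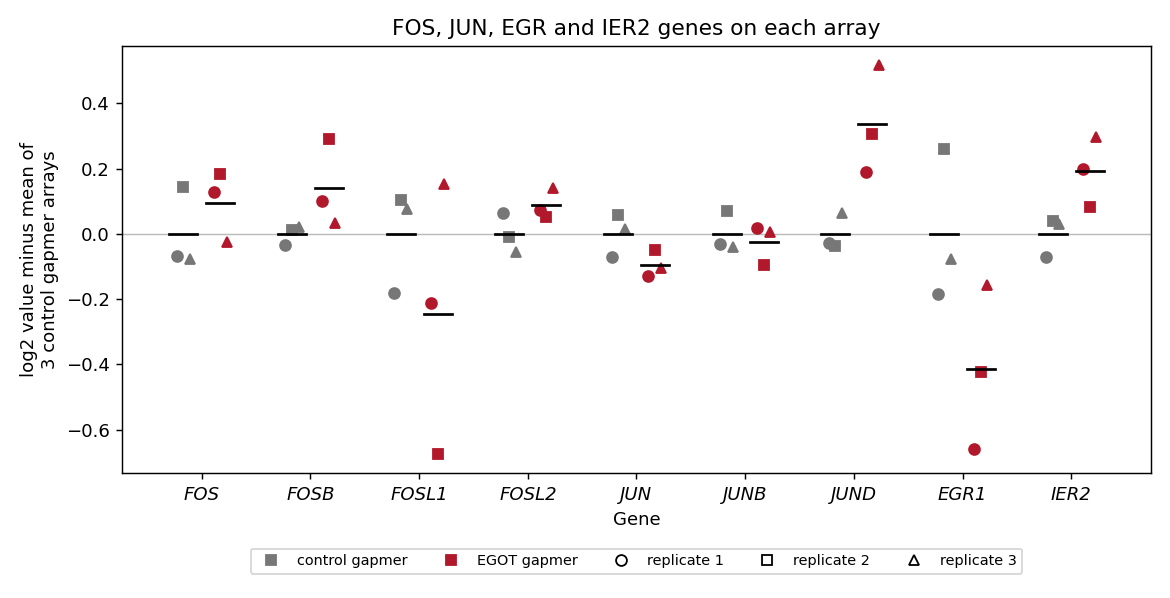
Log2 values of the 9 genes on each array, as the distance from the mean of the 3 control gapmer arrays (vertical axis), with control gapmer arrays in grey, EGOT gapmer arrays in red, a symbol per replicate number and a black line at each group mean. The red points of JUND, IER2 and FOSB lie above all their grey points, and FOSL1 and EGR1 spread most.

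In the JUN family the log2 differences ran from -0.094 for JUN to 0.34 for JUND, and the contrast between members was not tested. JUN, the archetypal AP-1 subunit and a substrate of JNK kinases, read 10.38, 10.51 and 10.47 on the control arrays and 10.32, 10.40 and 10.35 on the EGOT gapmer arrays. EGOT gapmer array 2 lay above control array 1, so the groups overlapped by this 1 pair. This gave a log2 difference of -0.094 (standard error 0.0708, limma adjusted p = 0.475).

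JUNB, which can restrain JUN and slow the cell cycle, was the gene with the difference nearest to 0. It read 8.62, 8.72 and 8.61 on the control arrays and 8.67, 8.56 and 8.66 on the EGOT gapmer arrays, so the groups overlapped. The log2 difference came to -0.023 (standard error 0.0732, limma adjusted p = 0.885). Its sign turned without control gapmer replicate 2 or EGOT gapmer replicate 2.

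JUND, the JUN protein usually present in resting cells, had the highest difference. It read 8.38, 8.37 and 8.47 on the control arrays and 8.60, 8.72 and 8.93 on the EGOT gapmer arrays. All EGOT gapmer arrays were above all control arrays, by at least 0.125 on the log2 scale. Means were 8.41 ± 0.0554 and 8.75 ± 0.166 (SD, n = 3 each), a log2 difference of 0.34 with a standard error of 0.0979. That is 1.26-fold, with a 95% interval of 1.08 to 1.48 (limma adjusted p = 0.0797). JUND passed, at the same difference, with a variance trend (limma adjusted p = 0.00939) or among genes above the median level (limma adjusted p = 0.0145), and in 2 of 13 alternatives in all, whose adjusted p ran from 0.00939 to 0.212.

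EGR1 had the lowest difference and a wide spread in both groups. It read 7.34, 7.79 and 7.45 on the control arrays and 6.87, 7.10 and 7.37 on the EGOT gapmer arrays. EGOT gapmer array 3 was above control array 1, and otherwise the EGOT gapmer arrays were lower. Means were 7.53 ± 0.233 and 7.11 ± 0.252 (SD, n = 3 each), a log2 difference of -0.41 with a standard error of 0.160. The level with the EGOT gapmer was 0.751 of the control level, with a 95% interval of 0.578 to 0.975 (limma adjusted p = 0.165). EGR1 passed with a variance trend (limma adjusted p = 0.0492) or among genes above the median level (limma adjusted p = 0.0462), in 2 of 13 alternatives, whose adjusted p ran from 0.0462 to 0.375. With 1 array left out the log2 difference ran from -0.54, without EGOT gapmer replicate 3, to -0.28, without control gapmer replicate 2, and as the mean of its probe sets it was -0.12.

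IER2 read 7.07, 7.18 and 7.17 on the control arrays and 7.34, 7.22 and 7.44 on the EGOT gapmer arrays. The EGOT gapmer arrays were all higher, array 2 by only 0.0409 on the log2 scale above the highest control array. This gave a log2 difference of 0.19 (standard error 0.0821, limma adjusted p = 0.201), and the gene passed in 0 of 13 alternatives.

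Groups did not overlap in 3 of the 9 genes, JUND, IER2 and FOSB, all with the EGOT gapmer higher. Over all genes the groups did not overlap in 31.7%, with the EGOT gapmer higher in 20.2% and lower in 11.5%, so this share of the 9 genes is near the background. The ordering depended on scaling. After another quantile normalization JUND and FOSB were still separate, FOSB by 0.000348 on the log2 scale, and IER2 was not. After cyclic loess JUND alone of these 3 was. EGR1 and JUN became separate after both, with the EGOT gapmer lower. The shares of all genes above are of the main setting, and those after these normalizations are not given here.

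The intervals reflect the spread among these arrays, gene by gene and without adjustment over genes, and bound no other source of variation. The 95% intervals of the 9 log2 differences ran from a lowest bound of -0.79, for EGR1, to a highest of 0.57, for JUND, so all 9 lay inside a 2-fold change in either direction. For JUN the interval was 0.835 to 1.05 of the control level, for JUNB 0.873 to 1.11 and for FOS 0.915 to 1.25.

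**Figure D2:**
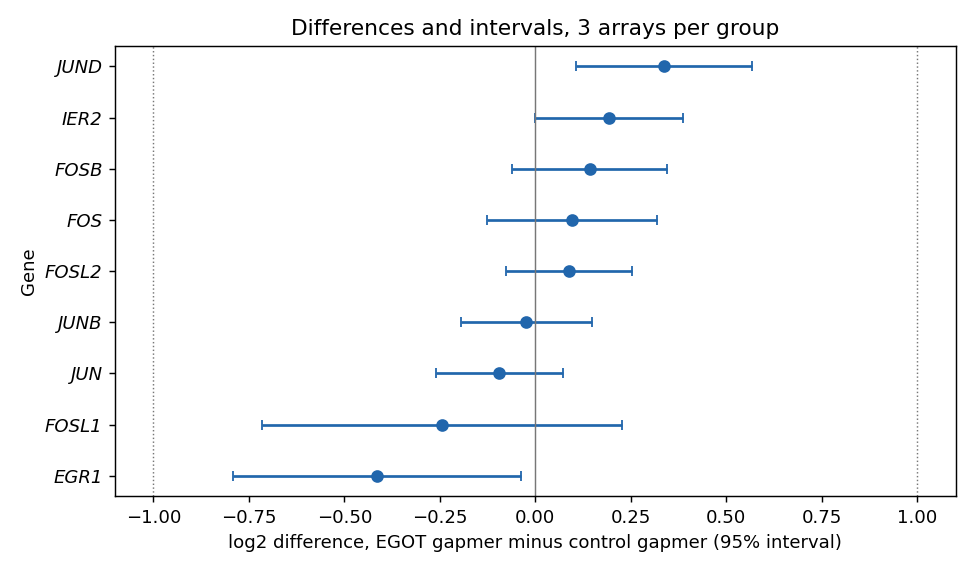
Log2 difference of each gene, EGOT gapmer minus control gapmer (horizontal axis), with its 95% interval from limma and 3 arrays per group; dotted lines mark a 2-fold change. All 9 intervals lie between -0.79 and 0.57, and those of JUND and EGR1 leave out 0 before adjustment.

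FOS, FOSB and EGR1 each had a second, dimmer probe set under the same symbol. That of EGR1 averaged 4.69 on the control arrays and 4.86 on the EGOT gapmer arrays, a log2 difference of 0.17 (limma adjusted p = 0.452 over all named probe sets), opposite in sign to -0.41. That of FOSB was at -0.078 (limma adjusted p = 0.847), opposite to 0.14 of the first, and that of FOS at 0.035 (limma adjusted p = 0.929), of the same sign as the first. Agreement between the probe sets was not tested. Named probe sets with the nearest numbers to these were mostly of minus-strand genes of the same chromosome, 16 of 17 for EGR1, 16 of 17 for FOSB and 17 of 19 for FOS. All 3 genes lie on the plus strand, and the neighbours of their brighter probe sets were plus-strand genes in 17 of 18, 14 of 14 and 18 of 20 cases. The strand that each probe set reads was not tested.

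**Figure D3:**
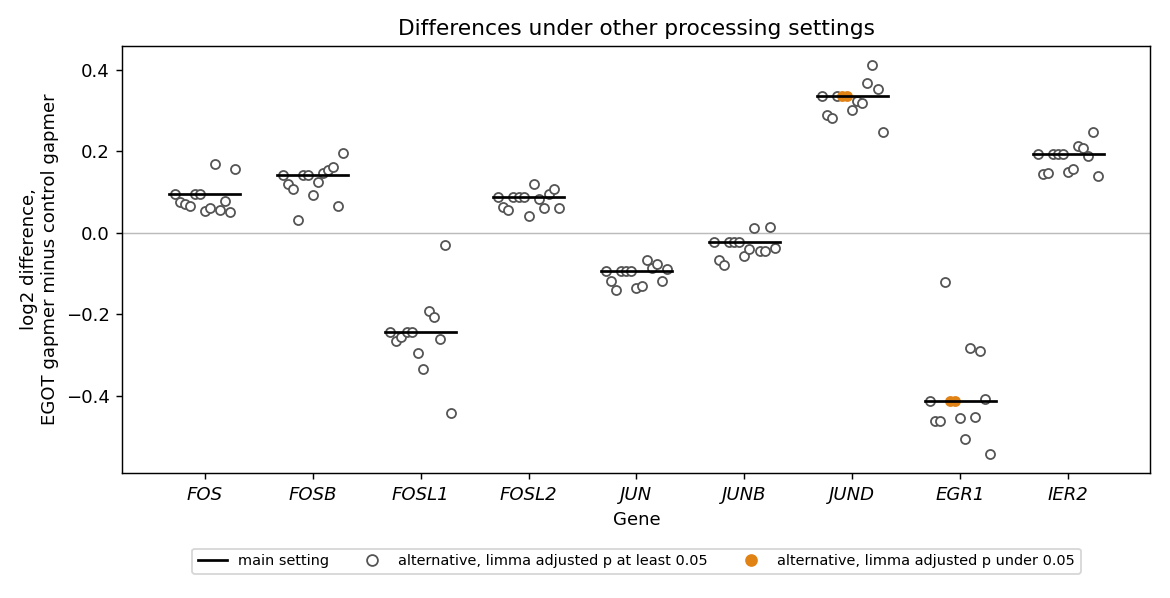
Log2 difference of each gene (vertical axis) in the main setting (black line) and under the alternatives (circles; filled where the limma adjusted p was under 0.05). JUND and EGR1 each passed in 2 of 13 alternatives, and the FOSL1 circle near 0 is the fit without EGOT gapmer replicate 2.

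Of 30 other immediate early genes that were measured, 2 rose and 1 fell, which is 10% beside 8.41% of all genes, and the median log2 difference was -0.081 beside 0.037 over all genes. TRIB1, a pseudokinase that directs protein degradation, read 8.15, 8.13 and 8.07 on the control arrays and 8.56, 8.65 and 8.68 on the EGOT gapmer arrays, a rise of 0.51 on the log2 scale (limma adjusted p = 0.0145). IER5 rose by 0.34 (limma adjusted p = 0.0446), though by 0.30, and no longer past the threshold, with the trend on gene length removed. KLF10, a repressor induced by TGF-beta, fell by 0.39 on the log2 scale (limma adjusted p = 0.0355). ATF3, an immediate early factor that pairs with JUN proteins, was at -0.30, just short of the threshold (limma adjusted p = 0.0501); it passed under 4 of 13 alternatives and was chosen after its values were seen. Groups did not overlap, with the EGOT gapmer lower, in 11 of the 30 genes, or 36.7%, beside 11.5% of all genes. With it higher they did not overlap in 5, or 16.7%, beside 20.2%. Of the 30 genes 26 were above the median level, beside 7406 of all 14812, and these shares were not matched for level or tested.

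Among 26 measured kinases and factors that act upstream of these genes, 0 rose and 2 fell. That is 7.69%, beside 8.41% of all genes, and the median log2 difference was 0.033. Of the 26 genes 22 were above the median level, and these shares were not matched for level or tested. Both that fell, MRTFA and CRTC3, encode coactivators of the classical switches, but their measured relatives did not pass and differed in direction. MRTFB and CRTC1 had log2 differences of -0.19 and -0.030 (limma adjusted p = 0.159 and 0.867). CRTC2 was at 0.22 (limma adjusted p = 0.105). Groups did not overlap in MRTFB, with the EGOT gapmer lower, and in CRTC2, with it higher. MRTFA, an actin-regulated coactivator of serum response factor, read 8.40, 8.50 and 8.37 on the control arrays and 7.81, 7.79 and 7.93 on the EGOT gapmer arrays, so the groups were well apart. It fell by 0.58 on the log2 scale, with a standard error of 0.0757 (limma adjusted p = 0.0129), and by 0.43 with the trend on gene length removed (limma adjusted p = 0.031). CRTC3, a coactivator of CREB, fell by 0.31 (limma adjusted p = 0.0374), but did not pass with that trend removed, at -0.22 (limma adjusted p = 0.113). The factors they serve did not pass: SRF was at 0.17 on the scale of log2 differences (limma adjusted p = 0.260) and CREB1 at -0.058 (limma adjusted p = 0.725). Groups overlapped in CREB1 but not in SRF, where EGOT gapmer array 2, at 8.60, was just above control array 2, at 8.58. Over all genes the groups did not overlap, with the EGOT gapmer higher, in 20.2%.

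Zipper proteins that pair or compete with FOS and JUN, with the EGR co-repressors, numbered 15 measured genes, of which 3 rose and 1 fell. That is 26.7%, beside 8.41% of all genes, and the median log2 difference was 0.030. Of the 15 genes 13 were above the median level, and these shares were not matched for level or tested. CREB5, a cAMP response element factor that can pair with JUN, read 7.72, 7.82 and 7.78 on the control arrays and 7.17, 7.40 and 7.31 on the EGOT gapmer arrays. It fell by 0.48 on the log2 scale (limma adjusted p = 0.0226), and was at -0.28 with the trend on gene length removed (limma adjusted p = 0.0925). MAF, a large zipper factor that can bind AP-1-like sites, rose by 0.43 (limma adjusted p = 0.0373). The stress factors ATF4 and DDIT3 rose by 0.41 and 0.66 (limma adjusted p = 0.0306 and 0.0430), and were at 0.37 and 0.62, short of the threshold, with that trend removed (limma adjusted p = 0.0546 and 0.0639). The EGR co-repressor genes NAB1 and NAB2 were at 0.016 and 0.093 (limma adjusted p = 0.921 and 0.721).

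Of 26 measured targets of AP-1 or EGR1, 1 rose and 3 fell. That is 15.4%, beside 8.41% of all genes, and the median log2 difference was -0.0023. Of the 26 genes 19 were above the median level, and these shares were not matched for level or tested. CD44, an adhesion receptor for hyaluronan, read 6.10, 6.18 and 6.00 on the control arrays and 5.54, 5.55 and 5.41 on the EGOT gapmer arrays, a fall of 0.59 on the log2 scale (limma adjusted p = 0.0142). The adhesion molecule gene ICAM1 and the chemokine gene CXCL8, which NF-kB also controls, fell by 0.43 and 0.72 (limma adjusted p = 0.0172 and 0.0214). TIMP1, an inhibitor of matrix metalloproteinases, rose by 0.61 (limma adjusted p = 0.0304), and was at 0.57 with the trend on gene length removed, just short of the threshold (limma adjusted p = 0.0514). CCND1, the cyclin D1 gene, was at -0.083 (limma adjusted p = 0.562). Without control gapmer replicate 1, 2 or 3, 0 genes of these 4 lists passed by limma, with 4 to 9 in each list at an unadjusted p under 0.05.

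**Figure D4:**
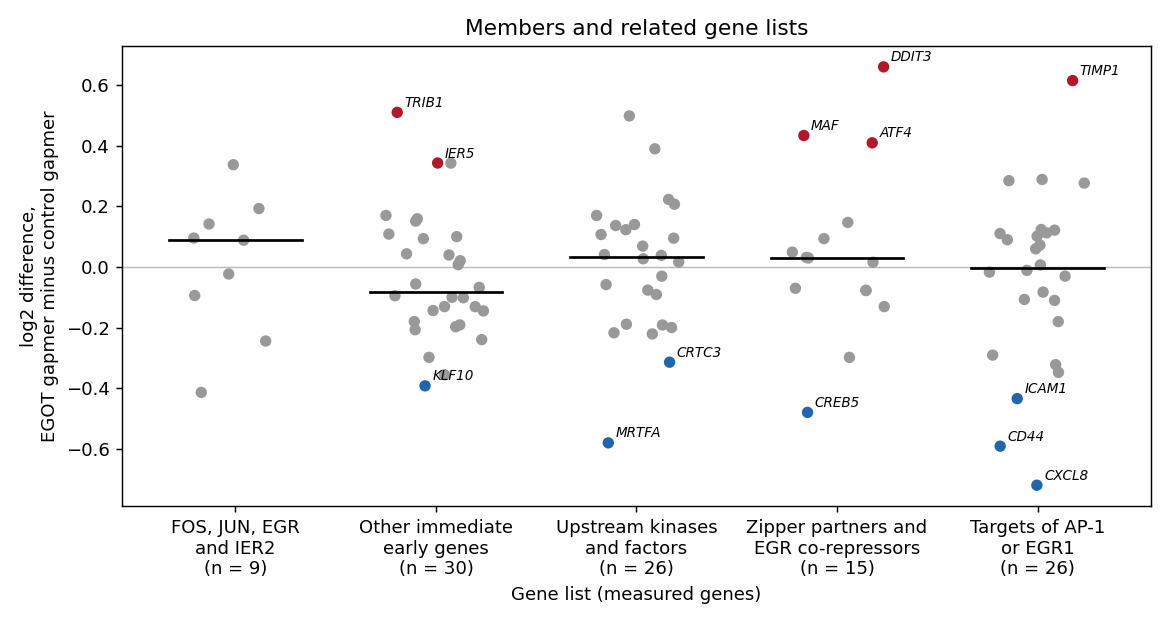
Log2 difference, EGOT gapmer minus control gapmer (vertical axis), of each measured gene in the 9-gene set and in 4 related lists, with the median as a black line and genes past the threshold in red (higher) or blue (lower) with their symbols. No gene of the 9 is coloured, and the other lists hold 13 coloured genes, among them MRTFA at -0.58 and CD44 at -0.59.

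The 9 genes are short. Their median genomic length in RefSeq was 3825 bp, beside 20870 bp over all measured genes, and the median difference of all genes was lower in long genes. The median log2 difference was 0.059 in genes of up to 5 kb, which include 6 of the 9, and 0.078 in those of 5 to 10 kb, which include FOSB and FOSL1. It was -0.085 in genes over 100 kb, of which 12.5% fell and 0.843% rose. With the trend on length removed, JUND was at 0.30 (limma adjusted p = 0.139), IER2 at 0.15 (limma adjusted p = 0.340) and EGR1 at -0.46 (limma adjusted p = 0.160). Groups then did not overlap in JUND, with the EGOT gapmer higher, and in JUN, with it lower by 0.00481 on the log2 scale at the nearest pair. The share of all genes whose groups did not overlap in this setting is not given here.

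**Figure D5:**
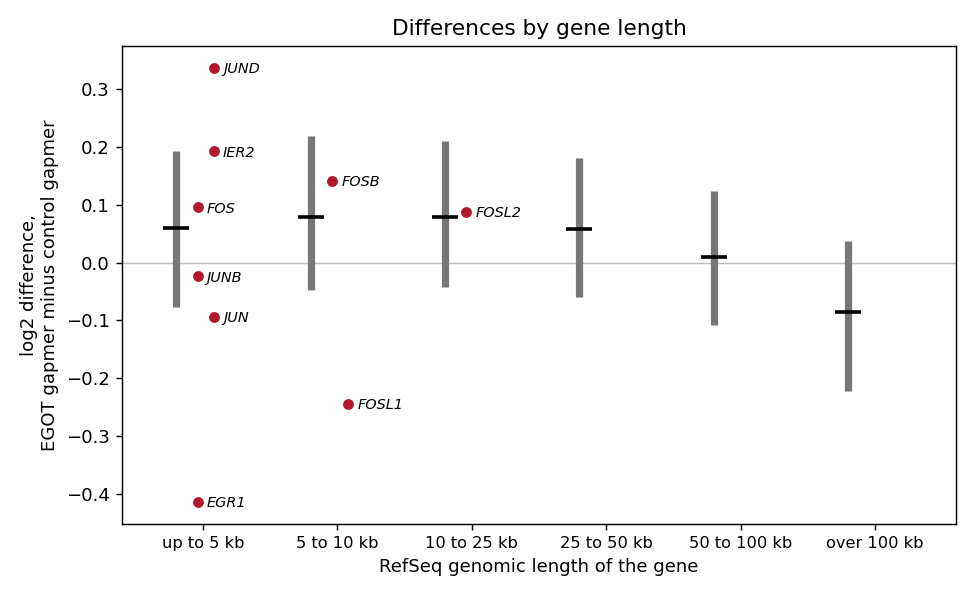
Log2 difference, EGOT gapmer minus control gapmer (vertical axis), by RefSeq genomic length (horizontal axis), with grey bars from the lower to the upper quartile of all measured genes, black marks at their medians and the 9 genes in red. Medians go from 0.059 in the shortest genes to -0.085 in the longest, and JUND lies above and EGR1 below the bar of the class of up to 5 kb.

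EGR1 had the largest difference in size, and the genes most like it over the 6 arrays were LIMS1, ALLC and LINC01634. Their values, each centred on the gene's own mean, differed from those of EGR1 by a root mean square of 0.0700, 0.0756 and 0.0807 on the log2 scale, beside a median of 0.330 over all genes. Among the other 8 genes JUN was nearest, at 0.237, and JUND farthest, at 0.407. LIMS1, which encodes a focal adhesion adaptor, was itself not past the threshold, at a difference of -0.47 (limma adjusted p = 0.0904).

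The arrays themselves were alike, with correlations over all probe sets of 0.985 to 0.992. EGOT read 6.29, 6.79 and 6.71 with the control gapmer against 4.91, 4.90 and 4.69 with the EGOT gapmer, so it fell by 1.76 on the log2 scale (limma adjusted p = 0.0076). EIF2AK2, the PKR gene, fell by 0.57 (limma adjusted p = 0.0119). It did not pass without control gapmer replicate 1, 2 or 3 (limma adjusted p = 0.0605, 0.0640 and 0.0616), and whether its probe set also reads RNA of the PKR plasmid, given to every culture, was not tested. Hepatocyte and hepatoma markers were bright, ALB at 13.68 and AFP at 13.32 with the control gapmer, and 1 of 10 measured rose. Of 8 leukocyte markers 4 were measured, and CD68 and LYZ rose, by 1.06 and 0.57 (limma adjusted p = 0.00807 and 0.0171). The other leukocyte markers measured, CD2 and CD14, were at 0.34 and -0.063 (limma adjusted p = 0.229 and 0.736), with overlapping groups. The mean of these 4 was 6.90 to 7.00 on the control gapmer arrays and 7.34 to 7.49 on the EGOT gapmer arrays. With the control gapmer CD68 and LYZ were already at 8.23 and 8.77, and CD2 and CD14 at 5.15 and 5.65. All arrays are of the HuH7 line by their labels. Neither the cause of the rise of CD68 and LYZ nor its part in the differences above was tested. The endothelial markers KDR and VWF were at 3.76 and 4.48 and the fibroblast marker DCN at 2.37, below the median of all arrays, and 0 of these 3 passed. Whether the arrays of a group stand for separate cultures is not said in the labels, and the p-values then reflect only the spread among these arrays, which may be technical.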

How the data were processed

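The deposited values are log2 expression values that the authors made with RMA, per the submitters' processing notes, from total RNA on an Affymetrix whole-transcript array. RMA corrects background, normalizes quantiles and summarises probes; for its version and any filters, the sources used here give nothing. The 3 arrays per group limit precision. Of 44629 probe sets, 15835 had 1 symbol in GEO's platform annotation, 0 had several and 28794 were unnamed and left out. Each of the 14812 genes is its probe set with the highest mean. Groups were compared with limma 3.58.1 (R 4.3.3, lmFit and eBayes, two-sided), adjusted by Benjamini-Hochberg. The script was checked on simulated data. Intervals are from limma's moderated errors with 7.19 degrees of freedom. Promoters are RefSeq's, GRCh38.p14; lengths are RefSeq genomic spans.

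The 10 genes and the lists were chosen with earlier results of these data known. Named are all measured members, EGOT and EIF2AK2, and up to 4 genes with the smallest p past the threshold in each list. The 3 genes most like the member with the largest difference are named too. SRF, MRTFB, CREB1, CRTC1, CRTC2, NAB1, NAB2, CCND1, ATF3 and the markers were named after their values were seen. The alternatives were the replicate number as a block, 2 other normalizations, the mean of all probe sets, a filter on dim genes, a variance trend, removal of a spline trend on gene length per array, and leaving out each array.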

Additional observations from a re-analysis of the deposited data

How the results depend on the processing

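Of the 9 genes, 0 passed in the main setting and 2, JUND and EGR1, passed with a variance trend and also when only genes above the median level were tested, where 8 of the 9 were left. In the other 11 alternatives 0 passed by limma, with 1 to 3 at an unadjusted p under 0.05. Over all genes 1245 passed, against 2513 with a variance trend, 2547 of 7406 among genes above the median level and 657 with the trend on gene length removed. With 1 array left out the count was 9 (without control gapmer replicate 2) to 579 (without EGOT gapmer replicate 1). Another quantile normalization gave 679 higher and 674 lower and cyclic loess 644 and 677, beside 770 and 475; neither turned the sign of any of the 9 genes. JUNB ran from -0.045 to 0.013 with 1 array left out and reversed, to 0.0126 without control gapmer replicate 2 and 0.0131 without EGOT gapmer replicate 2, and the other 8 genes kept their sign in every alternative run. FOSL1 was not tested among genes above the median level. The labels give no batch, so the main fit did not take the replicate numbers as pairs. Same-numbered arrays did not deviate together, with correlations of -0.0307, -0.054 and 0.0394. Those of differently numbered arrays ran from -0.078 to 0.0998. With the replicate number as a block 0 genes passed by limma, while 3438 had an unadjusted p under 0.05, and EGOT, at -1.76, had an adjusted p of 0.0543 and EIF2AK2, at -0.57, one of 0.0634. The alternatives for EGOT and EIF2AK2 were added after the data were seen. Where a count or sign changed, the cause was not tested. Signal over background was not measured here, so what it limits in dim genes was not tested.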

Other observations

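Of the 9 genes 4 are on chromosome 19, FOSB, JUNB, JUND and IER2, and the 3 whose groups did not overlap are all among them. The 1079 measured genes of chromosome 19 had a median log2 difference of 0.072, beside 0.034 in the other genes, and a median length of 12926 bp. In 23.6% of them the groups did not overlap with the EGOT gapmer higher, beside 20.2% of all genes. JUNB, the fourth, had a difference of -0.023. This grouping was noticed after the values were seen and was not tested.

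Several immediate early genes beyond the 9 had lower values with the EGOT gapmer without passing the test. The phosphatase genes DUSP1, DUSP4 and DUSP5, which switch off MAP kinases, had log2 differences of -0.19, -0.18 and -0.24 (limma adjusted p = 0.133, 0.167 and 0.144). The related genes DUSP2 and DUSP6 were at -0.10 and 0.0075 (limma adjusted p = 0.621 and 0.965), with overlapping groups. CCN2, a matricellular protein gene, was at -0.36 (limma adjusted p = 0.0626) and KLF6 at -0.20 (limma adjusted p = 0.178). In DUSP1, DUSP4, DUSP5, CCN2 and KLF6 the groups did not overlap, with the EGOT gapmer lower. Over all genes this held in 11.5%, and in the list of 30 other immediate early genes in 11, or 36.7%. HBEGF, a growth factor gene, was at 0.34 (limma adjusted p = 0.170), with overlapping groups. These genes were chosen after their values were seen.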
